A study of Mus musculus with 36 samples.

Results

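Mitochondrial ribosomal protein genes are nuclear genes whose products are imported into mitochondria and form the large and the small subunit of the mitochondrial ribosome. Members were taken by their symbols, Mrpl or Mrps followed by a number and at most 1 letter from a to d, which gave 78 of the 40205 genes in the count tables. Of these, 51 encode proteins of the large subunit, a number that holds Mrps18a and Mrps30 despite their names, and 26 encode proteins of the small subunit. Mrps36 was placed in neither, since its product is a subunit of the 2-oxoglutarate dehydrogenase complex. Mrpl33 had no count in any of the 36 libraries, so that 77 members could be tested between EVs and cells. Whether a count of 0 throughout reflects absence of the mRNA was not tested.

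The data were RNA sequencing libraries of extracellular vesicles (EVs) and of the neural stem cells (NSCs) that secreted them. The NSCs came from the dorsal telencephalon of C57BL/6J fetuses at gestational day 12.5, the tissue that gives rise to the isocortex, grown as neurospheres after passaging. Tissue of a pregnancy was pooled by fetal sex, so that 3 pregnancies (sets 3, 4 and 5) gave 1 female and 1 male culture each, and each of these 6 cultures was kept at 0, 120 or 320 mg/dL ethanol until day 5. Each culture and dose gave 1 EV and 1 cell library, so that the 36 libraries fell into 12 conditions with 3 libraries each. The labels give the genotype of every sample as WT, and the study's methods name the mice of all groups as C57BL/6J (Ai14), a line with a Cre-dependent tdTomato reporter.

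The mitochondrial ribosome makes the few proteins that mitochondrial DNA encodes, which are core subunits of the respiratory chain and of ATP synthase. Its ribosomal RNAs come from mitochondrial DNA, and all of its proteins come from the nucleus, so both genomes must be expressed for it to be built. Some of its proteins have counterparts in bacterial ribosomes, such as Mrps12 at the decoding centre and Mrpl12 in the stalk that receives translation factors, and others, such as Mrps22, occur only in mitochondria. Ets-family factors (GABPA), NRF1 and YY1 are known to bind the promoters of many nuclear genes of mitochondria.

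RefSeq promoters (GRCm38.p6, 250 bases before to 50 bases after the start of a gene) were found for 69 of the 78 members. The GABPA-type Ets motif CCGGAAG, searched on both strands, was in 26 of them (37.7%), against 9.93% of the promoters of 27025 genes and 17.8% of those of the 11942 genes tested between EVs and cells that had a promoter entry. The NRF1-type motif, GCGCA and GCGC with any 1 base between them, was in 13 (18.8%, against 5.19% and 10.3%), and the YY1-type motif AAGATGGCG in 8 (11.6%, against 1.64% and 3.12%). The Ets motif ends with the letters AAG with which the YY1-type motif begins, and a match describes these letters only. The promoters given are those of the members with the lowest and the highest EV to cell ratio (Mrps22 and Mrps16), of Mrpl12 for the NRF1-type motif, of Mrps18a for the YY1-type motif, and of Mrps6, the member at the highest level in cells, which held none of these motifs. Capitals mark the motifs, on either strand. Each Ets match of Mrps16 reads CTTCCGG, and the NRF1-type match of Mrpl12 reads GCGCCTGCGC, because these lie on the opposite strand.
Mrps22, chr9:98601630-98601929, minus strand: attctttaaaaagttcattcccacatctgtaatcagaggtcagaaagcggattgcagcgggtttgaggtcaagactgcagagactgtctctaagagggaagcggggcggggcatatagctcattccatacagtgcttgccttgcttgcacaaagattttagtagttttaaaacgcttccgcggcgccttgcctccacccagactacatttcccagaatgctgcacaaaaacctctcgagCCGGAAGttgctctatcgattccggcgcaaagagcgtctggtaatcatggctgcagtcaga
Mrps16, chr14:20393441-20393740, minus strand: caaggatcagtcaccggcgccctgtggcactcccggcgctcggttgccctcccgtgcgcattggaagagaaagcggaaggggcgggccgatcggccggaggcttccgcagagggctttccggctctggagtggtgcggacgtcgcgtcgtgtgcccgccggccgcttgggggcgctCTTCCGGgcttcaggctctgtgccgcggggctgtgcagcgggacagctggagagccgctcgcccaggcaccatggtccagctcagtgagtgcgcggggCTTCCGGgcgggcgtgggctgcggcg
Mrpl12, chr11:120484387-120484686, plus strand: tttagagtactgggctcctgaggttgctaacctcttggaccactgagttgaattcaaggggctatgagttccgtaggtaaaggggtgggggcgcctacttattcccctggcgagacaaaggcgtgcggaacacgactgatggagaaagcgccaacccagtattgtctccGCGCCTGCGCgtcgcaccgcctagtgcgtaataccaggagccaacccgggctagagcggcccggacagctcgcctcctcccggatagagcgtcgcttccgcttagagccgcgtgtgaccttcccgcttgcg
Mrps18a, chr17:46110754-46111053, plus strand: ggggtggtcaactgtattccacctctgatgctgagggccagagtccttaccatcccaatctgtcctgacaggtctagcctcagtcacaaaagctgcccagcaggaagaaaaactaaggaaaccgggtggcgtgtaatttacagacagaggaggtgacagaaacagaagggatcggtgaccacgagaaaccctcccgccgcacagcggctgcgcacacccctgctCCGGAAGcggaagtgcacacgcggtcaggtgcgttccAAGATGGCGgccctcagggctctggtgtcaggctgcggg
Mrps6, chr16:92058086-92058385, plus strand: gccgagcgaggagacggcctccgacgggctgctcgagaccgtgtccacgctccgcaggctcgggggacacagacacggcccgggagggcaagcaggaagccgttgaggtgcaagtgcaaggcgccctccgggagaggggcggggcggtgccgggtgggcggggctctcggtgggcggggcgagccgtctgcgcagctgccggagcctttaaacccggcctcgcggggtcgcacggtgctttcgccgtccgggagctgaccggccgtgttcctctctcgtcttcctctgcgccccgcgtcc

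Depth differed between the locations, with 0.959 to 5.51 M counts per library in EVs (M for mega, median 3.83) and 26.6 to 55.3 M in cells (median 37.8). The members together held 409 to 5963 counts in an EV library and 38882 to 121180 in a cell library, so single members carried a larger counting error in EVs. No 2 libraries of a condition were identical. The stem cell markers Nes, Pax6, Vim, Fabp7, Hes1, Hes5 and Slc1a3 had a summed level of 2567 to 4088 CPM (counts per M of the scaled library total) in cells and 724 to 1307 CPM in EVs. Of these, Hes5 alone had a higher median in EVs (48.8 CPM) than in cells (13.4 CPM). Sox2, which NSCs are known to express, was listed at 0 in every library. Neuron markers had a sum of 429 to 892 CPM in cells and 199 to 345 CPM in EVs, most of it Map2 (medians 587 and 226 CPM). The other neuron markers had medians of at most 6.24 CPM in cells. Of these, Dcx (8.85 against 5.29 CPM) and Rbfox3 (11.03 against 5.36 CPM) had higher medians in EVs, and Tubb3, Snap25 and Neurod1 lower ones. Oligodendrocyte lineage markers had a sum of 286 to 570 CPM in cells and 200 to 407 CPM in EVs. Astrocyte markers had a sum of 19.6 to 247 CPM in cells and 14.7 to 138 CPM in EVs, most of it Gfap (medians 56.5 and 25.6 CPM). Aqp4 had no count. The 5 microglia markers together did not exceed 0.892 CPM in cells and 15 CPM in EVs. The part of these differences in the results below was not tested. In bulk libraries, fewer cells of a type and less RNA per cell cannot be told apart.

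Members were compared with one another as CPM per kilobase of the canonical transcript, with the median over the 18 libraries of a location. In cells, the median member was at 7.31 CPM per kilobase (quartiles 4.40 and 11.3), and the members ranged from 2.04 (Mrps36) to 71.4 (Mrps6). Mrps6, a small subunit protein with a bacterial counterpart, was followed by Mrpl20 at 33.7 and Mrpl42 at 32.3, with Mrps22 at 20.9. In EVs the median member was at 3.83 CPM per kilobase (quartiles 2.33 and 8.49), and Mrps6 was again the highest at 24.1, ahead of Mrpl28 at 20.3 and Mrpl20 at 16.8. Across the 77 members the levels in EVs and cells were ordered alike in large part (Spearman's rho 0.78, across genes that share the same libraries and the same transcript lengths). Mrps22 was the clearest exception among the leading members, since it was 5 in order in cells and 42 in EVs.

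Between EVs and cells, most mitoribosomal mRNAs were lower in EVs. Of the 77 members tested, 57 (74.0%) were lower in EVs and 6 (7.79%) were higher at an adjusted p under 0.05 (edgeR quasi-likelihood test), and 14 did not pass. Of all 15281 genes tested, 80.5% were called, 42.2% as lower and 38.4% as higher in EVs, so the members differed from the background in direction and hardly in the share called. The median log2 fold change of the members was -0.78 (quartiles -1.31 and -0.27), against -0.08 over all genes. In 34 of the 78 members the EV library was lower than the cell library in all 18 pairs of a culture and dose, compared with 22.8% of all genes. For 21 members every EV library was below every cell library, which was so for 14.8% of all genes, and for no member was every EV library above every cell library. The size of these differences depends on the scaling: with library totals in place of TMM factors, the median of all genes moved from -0.08 to -0.88 and that of the members to -1.61, which left the members at -0.70 relative to all genes with TMM and at -0.73 with library totals. The relative value varied more with depth, filter and the members tested. It was -1.09 with counts summed over doses and -1.89 without a filter on low counts. With libraries thinned to the smallest total it was -0.26, but only 38 members were tested there, so depth and the set of members cannot be told apart.

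**Figure D1:**
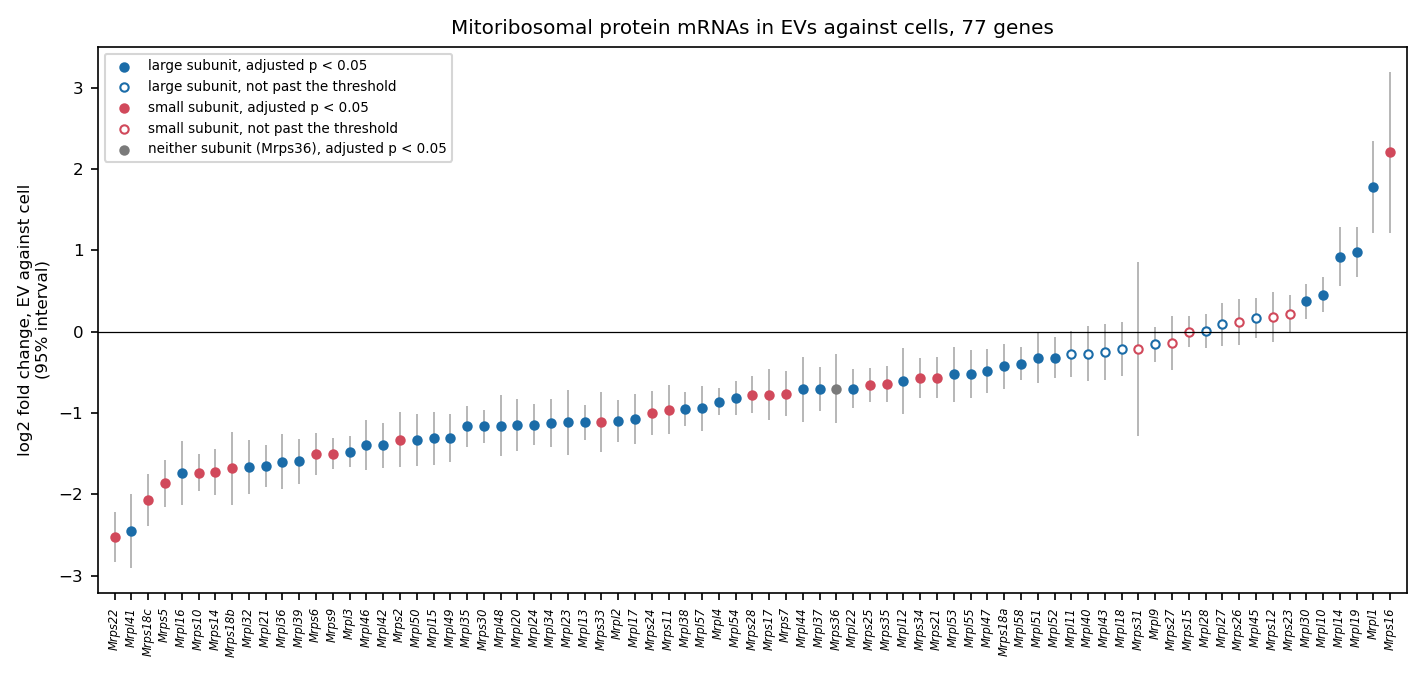
Log2 fold change of EVs against cells for the 77 members tested, ordered by size (x axis, 1 position per gene), with 95% intervals from the edgeR fit on the y axis. The values run from -2.52 for Mrps22 to 2.20 for Mrps16, and 64 of 77 are below 0.

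Mrps22, a mitochondria-specific protein of the small subunit (GRCm39 chr9:98470779-98483732, minus strand), was the member lowest in EVs. Its level was 17.8 to 43.4 CPM in the 18 cell libraries (median 25.1) and 1.69 to 10.2 CPM in the 18 EV libraries (median 4.31), so the locations did not overlap. EVs differed from cells by -2.52 ± 0.149 on the log2 scale (SE, adjusted p = 1.89e-17, edgeR). It rested on 1 to 22 counts per EV library.

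Mrpl41, a large subunit protein, had 6.67 to 23.2 CPM in cells (median 9.63) and 0 to 5.12 CPM in EVs (median 2.18), with no count in 2 EV libraries. The difference was -2.44 ± 0.225 on the log2 scale (SE, adjusted p = 2.83e-12, edgeR). Again no EV library reached the lowest cell library. The other 8 members with the lowest ratios were Mrps18c (-2.06), Mrps5 (-1.87), Mrpl16 (-1.74), Mrps10 (-1.73), Mrps14 (-1.72), Mrps18b (-1.68), Mrpl32 (-1.66) and Mrpl21 (-1.65), each lower in EVs in 18 of 18 pairs. Counting by strand was not stated, and the exons of Mrps18c share 76.9% of their bases with Abraxas1, those of Mrpl41 share 41.9% with Dph7, and those of Mrpl16 share 29.3% with Stx3, in each case on the opposite strand. Mrps18b, Mrps36, Mrps33 and Mrpl23 have near-identical copies in the genome (at least 99% identity over at least 30% of the transcript), so their counts are uncertain. With the limit at 95% identity, 14 members have copies. These include Mrps10 (98.0% identity), Mrpl21 (96.8%) and Mrpl41 (95.3%), which are also among the lowest ratios given above.

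The highest member in cells, Mrps6, was also lower in EVs. It had 35.5 to 105 CPM in cells (median 74.2) and 13.7 to 53.6 CPM in EVs (median 25), was lower in 18 of 18 pairs, and differed by -1.50 ± 0.127 in log2 fold change (SE, adjusted p = 2.88e-13, edgeR). The next in cells, Mrpl20 (-1.15) and Mrpl42 (-1.40), were lower as well. Mrpl28, by contrast, had 9.94 to 31.5 CPM in EVs and 17.4 to 28.4 CPM in cells, with a log2 fold change of 0.01 and a 95% interval of -0.20 to 0.21.

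Among the members named for their roles, Mrps30 (-1.16), which sits in the large subunit, Mrps36 (-0.70), the stalk protein Mrpl12 (-0.60), Mrps18a (-0.43) and the peptidyl-tRNA hydrolase Mrpl58 (-0.39) were lower in EVs. Mrps12, at the decoding centre, had 3.93 to 10.5 CPM in EVs and 4.26 to 13.4 CPM in cells, and its log2 fold change of 0.18 (95% interval -0.13 to 0.49) did not pass the test. Mrpl45, which ties the ribosome to the inner membrane, was at 0.17 (-0.08 to 0.42), Mrps23 at 0.22 (-0.02 to 0.45) and Mrps26 at 0.12 (-0.16 to 0.41). The signs of these 4 values were not stable: with library totals they became -0.62, -0.60, -0.56 and -0.68 for Mrps12, Mrpl45, Mrps23 and Mrps26.

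The 6 members higher in EVs were Mrps16, Mrpl1, Mrpl19, Mrpl14, Mrpl10 and Mrpl30, all of which have bacterial counterparts. All but Mrps16 were higher in EVs in most of the 18 pairs, whereas Mrps16 was above every cell library in 7 EV libraries. Mrpl19 had 11.8 to 35.1 CPM in EVs (median 27.8) and 8.10 to 22.3 CPM in cells (median 13.3), and was the 1 member that was higher in EVs in all 18 pairs, by 0.98 ± 0.149 on the log2 scale (SE, adjusted p = 2.79e-07, edgeR). Mrpl14 had 6.58 to 44.6 CPM in EVs and 5.15 to 12.8 CPM in cells (log2 fold change 0.92 ± 0.179). Mrpl10 had 11.8 to 36.7 CPM in EVs and 14.7 to 23.3 CPM in cells (0.45 ± 0.107), and Mrpl30 had 25.8 to 56.2 CPM in EVs and 21.4 to 54.1 CPM in cells (0.37 ± 0.107). With library totals the values of Mrpl10 and Mrpl30 became -0.34 and -0.39, both still above the all-gene median on that scale. Mrpl10 shares 36.6% of its exon bases with the noncoding Gm11574 and Mrpl19 shares 35.6% with Gcfc2, on the opposite strand.

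Mrpl1 and Mrps16 varied far more among EV libraries than among cells. Mrpl1, a protein of the ribosome's L1 stalk, was at 25.4 to 33.9 CPM in cells and at 13.8 to 273 CPM in EVs (median 63.5), with 15 of 18 EV libraries above every cell library. The fit gave a log2 fold change of 1.78 ± 0.277 for it (SE, adjusted p = 4.13e-07, edgeR). Mrps16, a small subunit protein, was at 8 to 20.8 CPM in cells. In EVs it was at 96.0 to 275 CPM in 7 libraries and at 5.07 to 14.2 CPM in the other 11, and it was lower in EVs in 10 of 18 pairs. The 7 were the female cultures of set 3 at 0 and 120 mg/dL and of set 5 at 120 and 320 mg/dL, and the male cultures of set 3 at 120 mg/dL and of set 4 at 0 and 120 mg/dL. The log2 fold change of 2.20 ± 0.487 (SE, adjusted p = 0.000106, edgeR) therefore rested on 7 libraries, and with each EV library paired to its own cells as a block it was 1.14 (adjusted p = 0.0732).

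**Figure D2:**
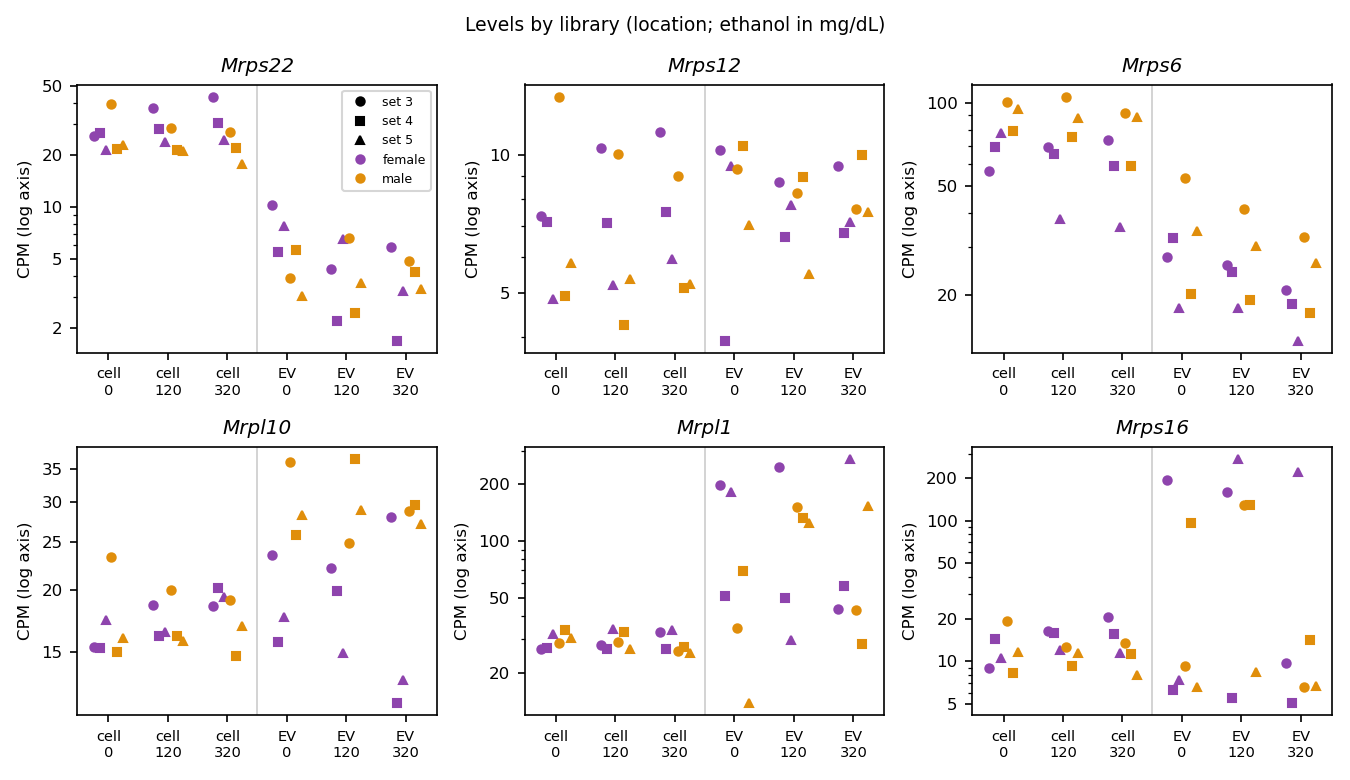
CPM (log axis) in every EV and cell library of 6 members, by ethanol dose in mg/dL on the x axis, with 1 point per library. Mrps22 and Mrps6 are lower in EVs in every pair, Mrps12 overlaps, and Mrps16 splits into 7 EV libraries at 96.0 to 275 CPM and 11 at 5.07 to 14.2 CPM.

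A single EV library decided the value of Mrps31, which was chosen after its values were seen. In the EV library of the male culture of set 4 at 120 mg/dL it had 1835 counts (499 CPM), whereas the other 17 EV libraries had 1.69 to 13.2 CPM and the cells 11.9 to 30.7 CPM. It was lower in EVs in 17 of 18 pairs, and the fit gave it a log2 value of -0.21 ± 0.529 (SE, adjusted p = 0.719, edgeR). With each EV library paired to its own cells as a block the value was -0.99 (adjusted p = 0.00699).

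The 2 subunits did not stand apart in their counts. Of the large subunit, 37 of 50 tested members were lower and 5 higher in EVs (median -0.84), and of the small subunit 19 of 26 were lower and 1 higher (median -0.77). Members with bacterial counterparts had 32 of 45 lower and 6 higher (median -0.96), and mitochondria-specific members 22 of 29 lower and 0 higher (median -0.71, with 22 at an unadjusted p under 0.05 and none of them higher). Over the 77 members the fold change bore little relation to the length of the canonical transcript (Spearman's rho 0.05) or to the span of the gene (-0.12), against 0.04 and 0.18 over 14306 annotated genes. Members with any of the 3 promoter motifs had a median of -0.70 (40 genes) and those without -1.11 (28 genes). Taken singly, the motifs differed in direction. The median was -0.526 with the Ets motif (25 genes) and -0.997 without it (43 genes). For the NRF1-type motif it was -0.604 with (13 genes) and -0.958 without (55 genes). The YY1-type motif went the other way, at -0.977 with (8 genes) and -0.736 without (60 genes). These differences were not tested.

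Other genes of the same pathway were set beside the background of 42.2% of all genes lower and 38.4% higher in EVs. All 5 mitoribosomal proteins with other symbols were lower, among them Ptcd3 (-3.22) and Dap3 (-0.73), and so were 9 of 10 translation factors (median -0.95), such as the elongation factors Tufm (-1.23) and Gfm1 (-1.30). Of the genes for transcription and RNA handling in mitochondria, 9 of 10 were lower (median -1.27), with the polynucleotide phosphorylase Pnpt1 at -2.89. Genes for assembly and rRNA modification were mixed, with 14 of 23 lower and 2 higher (median -0.40), and the mitochondrial aminoacyl-tRNA synthetases, with 7 of 17 lower and 4 higher (median -0.12), had a share of lower genes near the background. Nuclear-coded oxidative phosphorylation genes had 70 of 77 lower (median -1.19), and cytosolic ribosomal protein genes, with 36 of 76 lower and 17 higher (median -0.30), were also near the background in the share lower. Of the 2 mitochondrial rRNAs, which the depletion step was meant to remove along with other rRNA, mt-Rnr1 was at 0.44 (adjusted p = 0.112, edgeR) and mt-Rnr2 at -0.63 (adjusted p = 0.039).

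**Figure D3:**
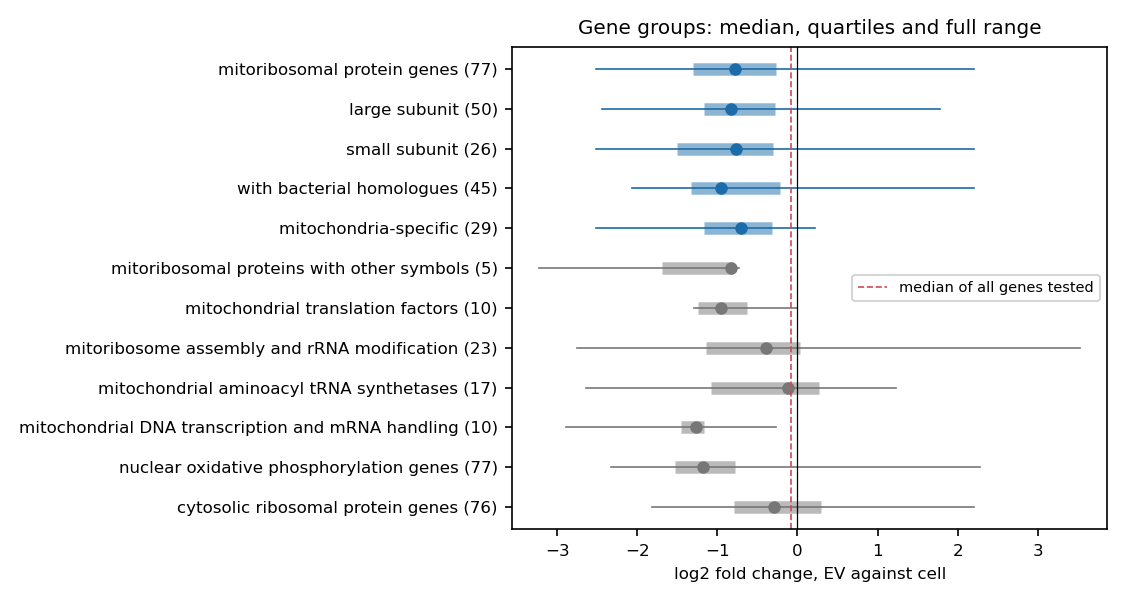
Log2 fold change of EVs against cells (x axis) for the members, 4 groups of them and 7 other gene groups, with the number tested in brackets, the median as a point, the quartiles as a thick line and the full range as a thin line. The members' median is -0.78, between that of the oxidative phosphorylation genes at -1.19 and that of the cytosolic ribosomal protein genes at -0.30.

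Summed over the members, the level was 1349 ± 231 CPM in cells (SD, n = 18, range 1042 to 1861) and 971 ± 234 CPM in EVs (SD, n = 18, range 691 to 1621). Without Mrpl1, Mrps16 and Mrps31, which were chosen after their values were seen, the sums were 1288 ± 223 CPM in cells (997 to 1777) and 760 ± 85.8 CPM in EVs (624.6 to 894). Without these 3 genes no EV library reached the lowest cell library, and with them the ranges overlapped.

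**Figure D4:**
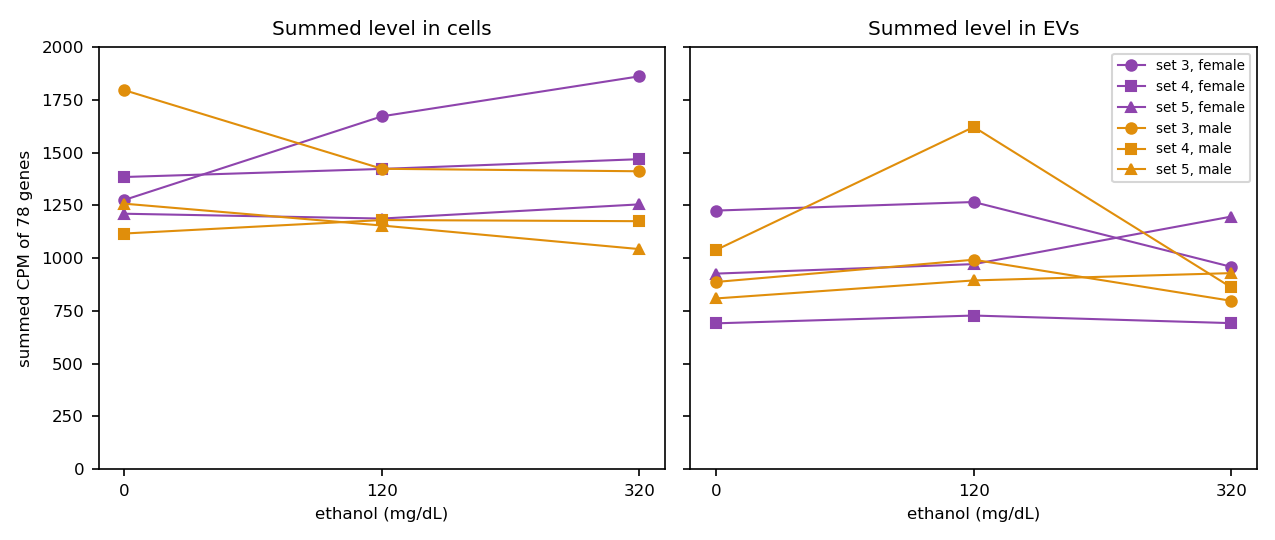
Summed CPM of the 78 members in each culture against ethanol dose in mg/dL, in cells and in EVs, with 1 line per culture. In cells the female culture of set 3 goes from 1275 to 1861 CPM and the male culture of set 3 from 1795 to 1411 CPM, while the other cultures move less. With library totals in place of TMM factors, that female culture goes from 1879 to 1787 counts per M.

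Ethanol was compared with the control of the same culture. In cells at 320 mg/dL, none of the 77 members passed the test (0.0393% of 17792 genes did, 0.0225% higher and 0.0169% lower, and 1 member and 1525 genes had an unadjusted p under 0.05). The median log2 change was 0.05, 51 of 77 members were above 0 (48.4% of all genes were), and the values ranged from -0.28 to 0.23. The 95% interval lay within 1 log2 unit of 0 for all 77 members and within 0.5 for 71, so that a doubling or a halving was outside the interval of each. Mrps18a had the smallest p: it was at 3.86 to 4.40 CPM in control cells (median 4.20) and at 3.03 to 4.12 CPM at 320 mg/dL (median 3.73), lower in 6 of 6 cultures, with a log2 change of -0.19 ± 0.0765 (SE, adjusted p = 0.508, edgeR). Mrps10 was at -0.16 and Mrpl14 at 0.23, with intervals that included 0.

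At 120 mg/dL in cells, which shares its controls with the higher dose, no member passed either (0% of 17792 genes, 443 genes and 0 members at an unadjusted p under 0.05). The median change was -0.00, and every interval lay within 0.5 log2 units of 0. Mrpl48 was at -0.21, Mrps10 at -0.11 and Mrps18a at -0.10 (all adjusted p = 1.00, edgeR).

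In EVs at 320 mg/dL, 72 members were tested and none passed (0.0842% of 11880 genes did, 0.0168% higher and 0.0673% lower, and 1410 genes and 3 members at an unadjusted p under 0.05). The median was -0.07 with 27 members above 0 (51.9% of all genes were), and the intervals were wider than in cells, with 65 of 72 within 1 log2 unit and 19 within 0.5. Mrps6 was the member with the smallest p. Its level in EVs of the female cultures went from 27.6 to 20.9 CPM in set 3, from 32.3 to 18.6 in set 4 and from 18.1 to 13.7 in set 5, and in those of the male cultures from 53.6 to 32.6, from 20.2 to 17.2 and from 34.2 to 26.3 CPM. It was thus lower in 6 of 6 cultures, with a log2 change of -0.47 ± 0.0993 (SE, unadjusted p = 0.000244, adjusted p = 0.119, edgeR), and DESeq2 gave -0.46 with an adjusted p of 0.0312. At 120 mg/dL the EVs of all 6 cultures were also lower than their controls, which both doses share, with a log2 change of -0.19 (adjusted p = 0.817, edgeR). In cells the change of Mrps6 was -0.28 at 320 mg/dL (adjusted p = 0.629), and 5 of 6 cultures were lower. The exons of Mrps6 share 12.6% of their bases with Slc5a3 on the same strand, which was at 0.443 to 6.65 CPM in cells and 0 to 1.69 CPM in EVs. Mrpl24 (0.42) and Mrps17 (-0.37) had adjusted p of 0.330 and 0.382 (edgeR).

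At 120 mg/dL in EVs, none of 72 members passed (0.00842% of 11880 genes did), and 7 members (9.72%) had an unadjusted p under 0.05, against 6.27% of all genes. Mrpl45 was at 15.7 to 46.1 CPM in control EVs and at 12.1 to 28 CPM at 120 mg/dL, lower in 6 of 6 cultures, with a log2 change of -0.48 ± 0.165 (SE, adjusted p = 0.768, edgeR). Mrpl16 (-0.90) and Mrps17 (-0.40) had adjusted p of 0.792, and the change of 1.94 for Mrps31 rested on the single library given above.

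The ratio of EV to cell level did not shift detectably with ethanol for any member. At 320 mg/dL 0 of 77 members and 0% of 18728 genes passed (edgeR, 0 members and 224 genes at an unadjusted p under 0.05), and at 120 mg/dL 0 of 77 members and 0.00534% of genes. The median shifts were -0.07 and -0.08 on the log2 scale, and the intervals lay within 1 log2 unit for 43 and 45 members, so larger shifts could not be set aside for the others. The smallest p belonged to Mrpl14 (-0.61), Mrpl24 (0.59) and Mrpl58 (-0.45) at 320 mg/dL, and to Mrps10 (0.61), Mrpl16 (-0.90) and Mrpl57 (-0.51) at 120 mg/dL, all with an adjusted p of 1.00.

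Behind the small average change in cells, the cultures moved in different directions. At 320 mg/dL the median change of the members in cells was 0.52 in the female culture of set 3. There, 70 of 77 members were above the control, against 48.8% of all genes. In the male culture of set 3 the median change was -0.38, and 3 of 77 members were above the control, against 43.2% of all genes. It was 0.11 and 0.12 in the female and the male culture of set 4, and 0.13 and -0.29 in those of set 5. In set 5, 63 and 5 members were above the control, against 50.6% and 49.4% of all genes. Each of these values sets 1 library against its control library, so the members are not replicates. The values also depend on the scaling. With library totals, the members' summed level in the female culture of set 3 fell at 320 mg/dL, from 1879 to 1787 counts per M. It also fell in the male culture of set 4 (1576 to 1440) and the female culture of set 5 (1757 to 1674). The other cultures kept the direction of their medians. The 120 mg/dL libraries, which share these controls, had 0.41 and -0.38 in set 3, 0.02 and 0.10 in set 4, and 0.05 and -0.13 in set 5. Oxidative phosphorylation genes had medians of 1.02 and -0.41 at 320 mg/dL in the female and the male culture of set 3, and cytosolic ribosomal protein genes 1.34 and -0.34. In EVs the culture medians lay between -0.17 and 0.17 at 320 mg/dL, and between -0.41 in the male and 0.18 in the female culture of set 3 at 120 mg/dL.

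**Figure D5:**
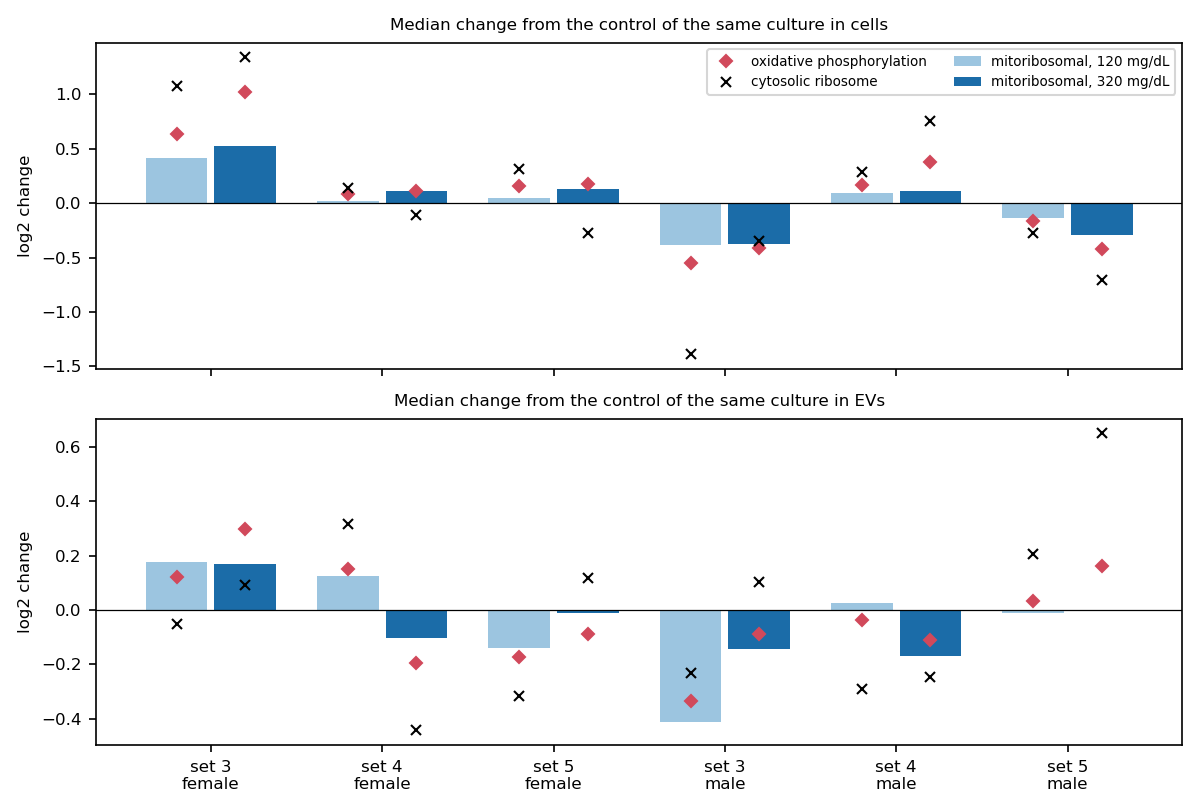
Median log2 change of the members from the control of the same culture, in cells and in EVs, at 120 and 320 mg/dL, with 1 bar per culture, beside the same for oxidative phosphorylation and cytosolic ribosomal protein genes. In cells at 320 mg/dL the values run from -0.38 in the male culture of set 3 to 0.52 in the female culture of set 3. All values are on the TMM scale.

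The difference between the sexes in the response to 320 mg/dL was tested as the interaction of sex and dose, with a block for each culture. In cells none of 77 members passed (0% of 17052 genes, smallest adjusted p among members 0.215, edgeR), although 41 members (53.2%) had an unadjusted p under 0.05 against 19.1% of all genes. The estimate was above 0, toward a higher response in females, for 72 of 77 members and 48.4% of all genes, and its median over the 77 was 0.43 on the log2 scale. Taken from log2 CPM in each pregnancy, this median had an SD of 0.47 between pregnancies. The members share the same libraries, so counts of members do not measure the spread between pregnancies. In set 3 the male response rests on the control with the highest summed level among male cells, 1795 CPM. The member with the smallest p was Mrps22, at 0.62 ± 0.171 (SE, adjusted p = 0.215), and Mrpl58 (0.44) and Mrpl50 (0.69) had the same adjusted p. These 3 were chosen after their values were seen. Oxidative phosphorylation genes had a median of 0.56 and cytosolic ribosomal protein genes one of 0.42. Leaving out set 3 lowered the members' median to 0.18, and leaving out set 4 raised it to 0.63. In EVs none of 68 members passed (0% of 11037 genes), 4 had an unadjusted p under 0.05, and the median was 0.10.

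Females and males were also compared over the 3 doses of a location, which takes the 3 libraries of a culture as independent. In cells 1 of 77 members passed, against 5.83% of 17052 genes (3.2% higher and 2.63% lower in females), and none was called higher in females. The estimate was above 0 for 70 of the 77 (48.5% of all genes), and the median over the 77 was 0.15, which became -0.020 with library totals, where that of all genes was -0.15, and -0.087 in control libraries alone. The member that passed was Mrps6, at 35.5 to 77.8 CPM in female cells (median 65.5) and 58.8 to 105 CPM in male cells (median 88.7), lower in females in 8 of 9 pairs of a pregnancy and dose. Female cells differed from male cells by -0.57 ± 0.153 on the log2 scale (SE, adjusted p = 0.0365, edgeR). The adjusted p was 0.0836 without set 3, 0.189 without set 5, and 0.609 with the counts of each culture summed over doses. The direction of the other members was not the same in each pregnancy: in control cells 2 of 77 members were higher in the female culture in set 3, 72 in set 4 and 29 in set 5, whereas at 320 mg/dL 61, 72 and 69 were. The median difference over all genes was -0.04, 0.02 and 0.01 in control cells, and -0.01, 0.02 and 0.08 at 320 mg/dL. With the pregnancy as a block 7 members passed, 5 higher and 2 lower in females. The share of all genes called in that fit is not given here, so this count is no result about the members.

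In EVs 1 of 68 members passed the comparison of the sexes, against 11.1% of 11037 genes (7.03% higher and 4.06% lower in females). Mrpl10, a protein at the base of the stalk, was at 11.8 to 28 CPM in female EVs (median 17.6) and 24.8 to 36.7 CPM in male EVs (median 28.8), lower in females in 9 of 9 pairs, with a difference of -0.58 ± 0.145 on the log2 scale (SE, adjusted p = 0.0219, edgeR). In the cells it was -0.04 ± 0.101 (adjusted p = 0.862), and the difference between EVs and cells was not tested. The adjusted p was 0.139 without set 4, 0.209 without set 5 and 0.315 with counts summed over doses. With the pregnancy as a block 4 members passed, 3 higher and 1 lower in females. As in cells, this count stands without the share of all genes called in that fit and is no result about the members.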

How the data were processed

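Per the labels and the study's methods, the authors trimmed the reads with Trimmomatic, removed duplicates, aligned them with STAR to mm39 and assigned them to genes with HTSeq, and the deposited counts are whole reads per gene and library without normalization. Libraries were made with a stranded kit after rRNA depletion, and whether counting used the strand is not given in the sources used here. The submitters' processing notes also name DESeq2 2.11.40.6, whose output was not used here.

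The tests used edgeR 4.0.16 under R 4.3.3 (filterByExpr with a minimum count of 10 and a minimum total of 15, TMM factors, quasi-likelihood F tests over all genes, Benjamini-Hochberg adjusted p under 0.05), and figures were drawn with Python 3.11.15 and matplotlib 3.10.9. CPM uses TMM-scaled totals, and log2 CPM a prior count of 1. The fit of EVs against cells had sex and dose as covariates, that of doses had the culture as a block, that of the EV to cell ratio had an interaction term and the library pair as a block, and that of the sexes had dose as covariate. The difference of the ethanol response between sexes was an interaction term, again with culture blocks. Each culture pools the tissue of 1 sex and pregnancy, so p-values over libraries that share a culture measure less than the spread between pregnancies.

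The members and gene lists were chosen with earlier results of these data known. Between EVs and cells the text names the 10 highest and 10 lowest members, 9 members fixed for their roles and the 3 highest per kilobase in each location. For ethanol it names the members past the threshold or, where none passed, the 3 with the smallest p, and for sex the members past the threshold. Any other gene named is marked as chosen after its values were seen, apart from genes of the lists and genes that overlap a member. Also unmarked are members named for copies in the genome and members named for a call under an alternative fit. The labels give the shared culture and pregnancy: deviations from the condition mean correlated between doses of a culture at a median of 0.72 and 0.62 in cells and 0.19 and 0.21 in EVs, between EV and cell library at 0.07, and between the sexes of a pregnancy at 0.38 in cells and 0.11 in EVs. Alternatives were DESeq2 1.42.0, median-of-ratios factors, library totals, no filter, libraries thinned to the lowest depth, fits without 1 pregnancy, fits with or without the block, sums over the doses of a culture, control libraries by themselves and fits of only the 2 doses compared. The edgeR fits were run on simulated data before use. Gene positions are from the GRCm39 annotation, and promoter sequences from RefSeq on GRCm38.p6.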

Additional observations from a re-analysis of the deposited data

Results flagged for a closer look

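Single libraries stood apart from the other libraries of their group by Dixon's criterion in 5 of the 65 sets of values examined, where chance flags about 1 in 20 sets. For Mrps17 in EVs at 120 mg/dL, the female culture of set 3 was at 18.8 CPM and the nearest library at 10.9 CPM. For Mrpl24 in control cells, the female culture of set 3 was at 15.5 CPM, below the nearest at 18.3 CPM. For Mrpl57 in control EVs, the same culture was at 3.07 CPM, below the nearest at 6.90 CPM. The summed level of the members in EVs of male cultures was 1621 CPM in set 4 at 120 mg/dL, the library with 1835 counts of Mrps31, and 1039 CPM in the nearest. In cells of male cultures it was 1795 CPM in the control of set 3 and 1423 CPM in the nearest, and this control is the one to which both ethanol doses of that culture were compared.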

How the results depend on the processing

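Between EVs and cells the number of members called was 53 to 74 of 77 under the alternatives that tested all 77, with the median between -0.68 and -1.61, and at least 48 members lower in each. The median was -1.61 with library totals and -1.43 without a filter on low counts, where all genes were at -0.88 and 0.46. Thinned to the smallest library total, 38 members were tested, 7 passed and the median was -0.11 (0.15 over all genes), a test of fewer counts. Leaving out 1 pregnancy gave 55 to 63 calls and medians of -0.80 to -0.68. The call counts given here for EVs against cells stand without the share of all genes called in the same fit. They describe how calls depend on the fit and are no result about the members. With library totals the sign turned for Mrpl10 (-0.34), Mrpl30 (-0.39), Mrpl45 (-0.60), Mrps12 (-0.62), Mrps23 (-0.56) and Mrps26 (-0.68), and without a filter for Mrpl10 (-0.16), Mrpl30 (-0.25), Mrpl45 (-0.44), Mrps12 (-0.42), Mrps23 (-0.39) and Mrps26 (-0.48). With counts summed over doses it turned for Mrpl45 (-0.19), Mrps12 (-0.079), Mrps23 (-0.11) and Mrps26 (-0.24), and thinned for Mrpl12 (0.16). Among alternatives chosen after seeing the data, a filter by the design matrix turned Mrpl45 (-0.12), Mrps12 (-0.10), Mrps23 (-0.070) and Mrps26 (-0.15), and Mrps26 became -0.0026 without the 4 EV libraries under 1.5 M counts and -0.025 without the EV library of the female culture of set 4 at 320 mg/dL. The cause was not tested.

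For ethanol in EVs, DESeq2 called 1 member at 320 mg/dL (Mrps6), no filter called 2 at 120 mg/dL (Mrps16 and Mrps31), and with library totals the medians were -0.28 at 320 and -0.27 at 120 mg/dL. Leaving out 1 pregnancy gave 0 calls for ethanol and ratio shifts. For sex in cells, DESeq2 called 2 members (Mrps6 and Mrpl58), sums over doses 0 and control libraries alone 0, with medians of -0.020 with library totals and -0.087 in controls, and leaving out 1 pregnancy gave 0 to 12. For sex in EVs, DESeq2 called 3 (Mrpl10, Mrpl32 and Mrps28), no filter 2 (Mrpl10 and Mrps31), library totals 0, sums over doses 0 and controls alone 0, and leaving out 1 pregnancy gave 0 to 8. The most calls came without set 3 in both locations. The counts in this paragraph stand without the share of all genes called in the same fit. They describe how calls depend on the fit and are no result about the members. With the pregnancy as a block the sex comparison called 7 members in cells and 4 in EVs, and with the library pair as a block EVs against cells called 63. Under the latter Mrps16 lost its call, Mrps31 gained one and 62 members were called in both fits, and for ethanol and the ratio shifts fits with or without a block changed no member's call. Of the named members' values under the alternatives, 453 kept direction and side of the threshold, 36 lost the call, 6 gained it and 23 turned.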
